A study of Mus musculus with 48 samples.

Results

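The Cyp4a family of fatty acid omega-hydroxylases was examined in the livers of mice of the FCG model on a high-fat diet (HFD). The family is represented here by 6 of the 55414 genes in the liver count table, found by matching the symbols Cyp4a10, Cyp4a12a, Cyp4a12b, Cyp4a14, Cyp4a31 and Cyp4a32 to Ensembl identifiers. The members were chosen by their measured difference between Intact mice with testes and Intact mice with ovaries, together with their shared name. The values of that difference, and of castration and ovariectomy, which share those mice, are therefore given as description without a test. Tests of the members are reported for the chromosomal comparisons and for the comparison of gonads among gonadectomised mice, which did not enter that choice. Genes outside the family were tested in every comparison. All 6 genes passed the filter on low counts that left 15414 genes for testing. Of the other Cyp4a rows with a symbol, Cyp4a28-ps had 20 reads, Cyp4a30b-ps 1 read and Cyp4a29-ps 0 reads over all 48 mice, and they were not followed further.

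In the FCG model Sry is deleted from the Y chromosome and placed as a transgene on an autosome, so that the kind of gonad does not depend on the sex chromosomes. The mice were C57BL/6 and fell into 8 groups of 6, each mouse giving 1 liver library. XX mice without the transgene are called XX Ov, XX mice with it (XX;SryTg) XX Te, XY mice without Sry (XY-) XY Ov, and XY mice with the transgene (XY-;SryTg) XY Te, where Ov stands for ovaries and Te for testes. Each of these 4 genotypes was studied with gonads in place (Intact) and after gonadectomy at 75 days of age (GDX). All mice received the HFD, with 60% of calories from fat, which began at 15 to 17 weeks of age, and were fasted before sacrifice. By the sample labels the HFD lasted 11 weeks in Intact and 15 weeks in GDX mice, whereas the study's methods give other durations for both. Gonadal status, duration of HFD and the make-up of the libraries (below) thus differ together, and their parts in a difference between Intact and GDX mice cannot be told apart. As a model, no group carries Sry at its native place on the Y chromosome, and all groups were on the same diet.

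CYP4A enzymes are cytochrome P450 monooxygenases of the endoplasmic reticulum that add a hydroxyl group to the terminal (omega) carbon of medium- and long-chain fatty acids, and of arachidonic acid, from which they make 20-HETE. The electrons come from NADPH through cytochrome P450 reductase, with help from cytochrome b5, and the hydroxylated fatty acid is oxidised by alcohol and aldehyde dehydrogenases to a dicarboxylic acid that is shortened in peroxisomes. In mouse liver, Cyp4a10 and Cyp4a14 are classical targets of the fatty acid receptor PPARα and rise in fasting, whereas Cyp4a12a is best known from male liver and kidney, where androgen and the male pattern of growth hormone secretion are known to raise it. Less is known of Cyp4a12b, Cyp4a31 and Cyp4a32.

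The members lie side by side on chromosome 4. Positions are given in build NCBIM37 with the GENCODE annotation, which is not the authors' build (GRCm39), and only to show the order of the genes. From the start of the cluster, Cyp4a12a (ENSMUSG00000066071) spans chr4:114971651-115005420 on the plus strand and Cyp4a12b (ENSMUSG00000078597) chr4:115084229-115111639, also plus. Cyp4a14 (ENSMUSG00000028715) follows on the minus strand at chr4:115158805-115168747. Cyp4a10 (ENSMUSG00000066072) at chr4:115190869-115206254, Cyp4a31 (ENSMUSG00000028712) at chr4:115236254-115251618 and Cyp4a32 (ENSMUSG00000063929) at chr4:115273574-115294207 are on the plus strand. The related Cyp4x1 and Cyp4b1 flank the cluster. Coding sequences were between 1524 and 1530 bases long.

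Sequence likeness matters for these genes, because STAR counts only reads that map to 1 place. Cyp4a12a and Cyp4a12b were 98.5% identical over 1527 coding bases, with 23 differing bases and an identical stretch over coding bases 1 to 342. A stretch in which they can be told apart, coding bases 661 to 750, is shown 5′ to 3′ with the bases of Cyp4a12b that differ from Cyp4a12a in capitals.
Cyp4a12a: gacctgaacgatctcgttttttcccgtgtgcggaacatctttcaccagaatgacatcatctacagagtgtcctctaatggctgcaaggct
Cyp4a12b: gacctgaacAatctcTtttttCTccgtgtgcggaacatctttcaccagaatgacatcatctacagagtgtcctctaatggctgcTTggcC
Cyp4a10, Cyp4a31 and Cyp4a32 formed the other close group, with 97.2% identity between Cyp4a10 and Cyp4a32, 96.6% between Cyp4a10 and Cyp4a31 and 96.0% between Cyp4a31 and Cyp4a32. Cyp4a14 stood apart at 74.8% to 76.0% identity with the other members. The first 90 coding bases show both facts, with capitals for bases that differ from Cyp4a10.
Cyp4a10: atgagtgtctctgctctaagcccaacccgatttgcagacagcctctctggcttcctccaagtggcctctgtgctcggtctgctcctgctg
Cyp4a31: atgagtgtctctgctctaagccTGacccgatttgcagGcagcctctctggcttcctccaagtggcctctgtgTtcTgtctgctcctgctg
Cyp4a32: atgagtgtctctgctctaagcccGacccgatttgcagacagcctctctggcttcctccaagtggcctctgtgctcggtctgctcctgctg
Cyp4a14: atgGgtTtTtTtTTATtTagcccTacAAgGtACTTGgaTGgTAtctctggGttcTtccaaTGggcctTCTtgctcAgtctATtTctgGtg
Cyp4a32 differed from Cyp4a10 at 1 of these 90 bases, Cyp4a31 at 5 and Cyp4a14 at 34. Over whole coding sequences, 45.1% of the 50-base words of Cyp4a12a were found in no other gene, and the same share held for Cyp4a12b. The share was 53.2% for Cyp4a32, 59.4% for Cyp4a10, 68.5% for Cyp4a31 and 100% for Cyp4a14. The counts of Cyp4a12a against Cyp4a12b, and of Cyp4a10, Cyp4a31 and Cyp4a32 among themselves, are therefore uncertain, and each comparison was also made with the reads of each close group summed.

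Each library held 13071874 to 20045141 reads on genes (median 16577748), so that 3 reads, the smallest count taken as detection, equal 0.150 to 0.230 CPM, the usual scale of a gene's reads relative to the reads on all genes of its library. Such floors cover counting error only. Reads outside annotated genes made up 3.47% to 6.20% of Intact and 8.52% to 11.3% of GDX libraries, with no overlap between them, and multimapping reads 10.7% to 18.9% and 8.59% to 10.8%. Among GDX libraries the former ran from 8.52% to 10.06% in XX and from 9.98% to 11.3% in XY mice. In XY Te Intact mice the median of multimapping reads was 16.4%, against 11.9% to 13.6% in the other Intact groups. This make-up also moves with the chromosomal comparisons below, and its part in them was not tested. Hepatocyte markers (Alb, Ttr, Apoa1, Cps1 and Cyp2e1) summed to 66730 to 131217 CPM in every library. The summed kidney tubule markers, of interest because the kidney also expresses Cyp4a12a, reached at most 5.14 CPM, in XY Ov Intact replicate 3. The sum of the 4 neutrophil markers, of which 1 had 0 reads in each of XX Te Intact, XX Ov GDX and XX Te GDX mice, had higher medians in XY than in XX mice. In GDX mice it ranged from 0.0760 to 1.996 CPM in XX and from 1.22 to 84.0 CPM in XY mice, with medians of 23.5 and 7.94 CPM in XY Ov GDX and XY Te GDX against 1.06 and 0.599 CPM in XX Ov GDX and XX Te GDX, and of 129 and 27.6 CPM against 7.33 and 3.37 CPM in the same order among Intact mice. The 4 Kupffer cell markers, all detected in every group, summed to medians of 601 and 498 CPM in XY against 209 and 247 CPM in XX GDX mice, and of 567 and 369 CPM against 406 and 201 CPM in Intact mice. The 4 endothelial markers, also detected in every group, summed to medians of 228 and 225 CPM in XY against 119 and 147 CPM in XX GDX mice, and of 153 and 104 CPM against 112 and 102 CPM in Intact mice. The 4 cholangiocyte markers moved the other way, with medians of 66.0 and 40.4 CPM in XX against 25.2 and 34.9 CPM in XY GDX mice, and of 25.6 and 27.2 CPM against 22.01 and 23.3 CPM in Intact mice. These markers move with the chromosomal comparisons below, and their part in them was not tested. In bulk liver, fewer cells of a type and less RNA per cell cannot be told apart.

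Per coding kilobase, Cyp4a14 had the highest level over the 48 mice, 876 ± 262.5 CPM per kb (mean ± SD), with Cyp4a10 next at 402 ± 176. On the same scale Cyp4a32 had 14.1 ± 5.09 CPM per kb, Cyp4a12a 12.4 ± 23.0, Cyp4a31 7.01 ± 2.80 and Cyp4a12b 2.07 ± 4.76. These levels do not allow for the share of 50-base words found in no other gene, 45.1% to 100% (above). The order of the members and their shares of the family's reads are uncertain to that extent. The SD of both Cyp4a12 genes exceeded their mean, and their medians, 0.399 and 0.0703 CPM per kb, were far below it, since most groups were near the floor. The summed level of the family ran from 1380 ± 414 CPM in XY Te Intact to 2625 ± 607 CPM in XX Ov GDX mice (n = 6 each). By group means, Cyp4a14 supplied 63.2% to 71.5% and Cyp4a10 22.8% to 34.9% of the family's reads. Cyp4a12a supplied 7.66% in XY Te Intact and 3.25% in XX Te Intact mice. The ratio of Cyp4a14 to Cyp4a10 reads had group means of 1.83 to 2.19 in GDX and of 2.56 to 2.88 in Intact mice, although single mice of the GDX and Intact groups overlapped.

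Cyp4a12a was a gene of the Te Intact groups. In XY Te Intact mice it measured 89.4, 136, 73.9, 63.8, 131 and 54.5 CPM in replicates 1 to 6. In XX Te Intact mice it measured 31.3, 46.3, 45.7, 30.01, 46.3 and 101 CPM. In mice with intact ovaries it was close to absent, at 0.0600 to 0.435 CPM (median 0.174) in XX Ov Intact and at 0 to 5.06 CPM (median 0.721) in XY Ov Intact mice. Every Te Intact mouse lay above every Ov Intact mouse, a separation shown by 0.337% of all tested genes. The mean was 70.8 CPM in Te Intact and 0.809 CPM in Ov Intact mice, a Te to Ov ratio of 87.5. The ratio was 239 within XX and 64.9 within XY mice. A single mouse, XY Ov Intact replicate 2 with 5.06 CPM, held 77 of the 141 reads of its group, and without it the ratio was 135 within XY mice and 167 over all Intact mice. Leaving out the highest mouse of the lower group raises a ratio, here and in the Te Intact ratios below. Ratios without high Te Intact mice, such as XX Te Intact replicate 6 (101 CPM), would be lower and are not given. The summed adipocyte markers also differed by gonad, with 0.484 to 27.7 CPM in Te Intact and 0 to 2.91 CPM in Ov Intact mice, and their part in the difference was not tested.

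Cyp4a12b, its near copy, followed the same order at lower counts. It measured 2.48, 2.91, 14.2, 3.33, 21.2 and 8.27 CPM in XX Te Intact and 10.1, 39.2, 11.99, 8.97, 16.7 and 8.70 CPM in XY Te Intact mice. In the other 6 groups no mouse passed 0.773 CPM. The separation of Te Intact from Ov Intact mice was again complete. XX Ov Intact mice held 1 read in all, against 941 in XX Te Intact mice, a ratio of 971 after allowing for depth (95% counting interval 174 to 38376). The ratio was 148 (82.6 to 297) for XY mice, with 1527 against 11 reads, and the ratio of means was 225 without XY Ov Intact replicate 4. Both intervals are of reads pooled over mice and leave out the spread between mice. Cyp4a12b took between 5.90% and 31.4% of the reads of both Cyp4a12 genes in single Te Intact mice, a share that rests on the positions where the copies differ. Over the 12 Te Intact mice, the levels of the copies after subtracting group means had Pearson's r of 0.568 (permutation p = 0.0542) and Spearman's rho of 0.587 (permutation p = 0.0494). Adjusted over 11 relations the p-values were 0.0542 and 0.0494, and r was 0.632 without the 2 mice farthest from the median.

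**Figure D1:**
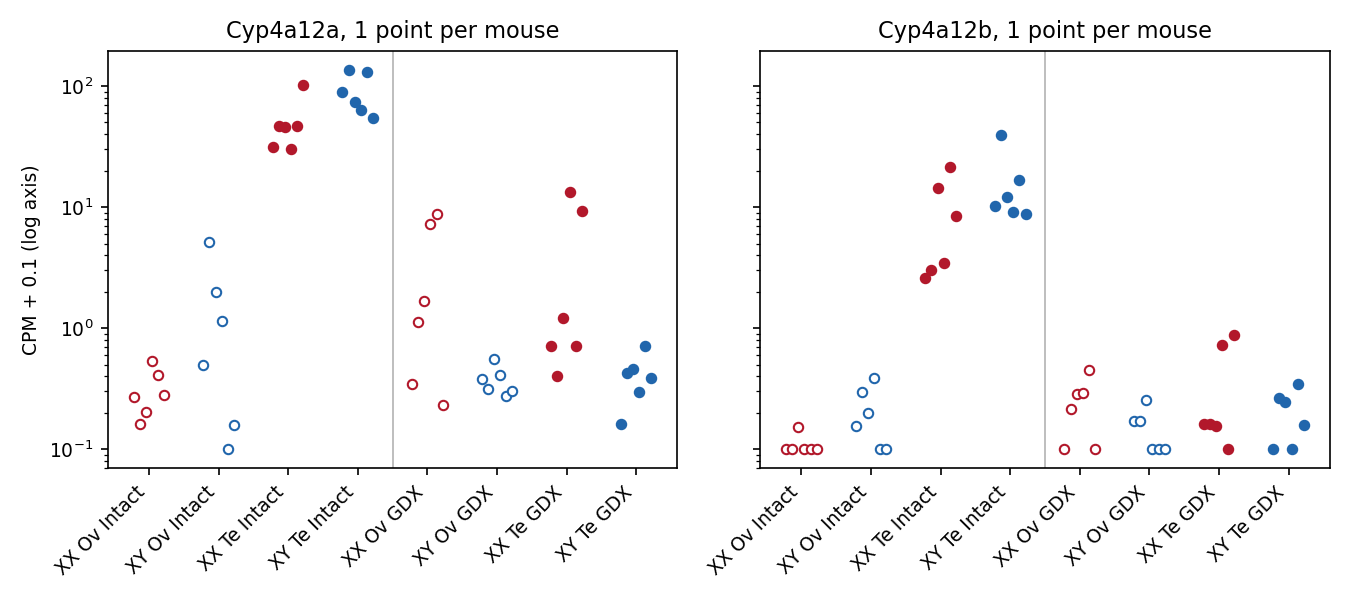
Levels of Cyp4a12a and Cyp4a12b in each of the 48 mice, as CPM + 0.1 on a logarithmic axis, by group (XX red, XY blue, filled points Te, open points Ov). The 12 Te Intact mice lie above all Ov Intact mice for both genes, and in the GDX groups the high Cyp4a12a values, up to 13.1 CPM, belong to XX mice.

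Gonadectomy was accompanied by the near loss of Cyp4a12a in mice with testes. Its mean went from 91.5 ± 34.7 CPM in XY Te Intact to 0.307 ± 0.182 CPM in XY Te GDX mice (n = 6 each), a 298-fold lower level. In XX mice it went from 50.1 ± 26.1 to 4.16 ± 5.57 CPM, 12.04-fold lower, or 21.2-fold without XX Te GDX replicate 4. Every Te Intact mouse lay above every Te GDX mouse for Cyp4a12a and for Cyp4a12b, as it did for 1.27% of all tested genes. The summed pancreas markers separated these mice too, at 9.63 to 36.4 CPM in Te Intact and 4.45 to 8.92 CPM in Te GDX mice, with 1 to 3 of the 4 markers at 0 reads in each group and Pnlip at 0 in every mouse. The adipocyte markers summed to 0.484 to 27.7 CPM in XY Te Intact against 0.0620 to 0.503 CPM in XY Te GDX mice, and to 2.94 to 10.2 CPM against 0.185 to 12.3 CPM in XX mice. The part of either in the difference was not tested. For Cyp4a12b the ratio of pooled reads, Te Intact to Te GDX, was 151 (95% counting interval 82.1 to 316) in XY mice. It was 35.0 (23.4 to 55.0) in XX mice, where the ratio of means was 33.3, or 54.4 without XX Te GDX replicate 6. These intervals, too, leave out the spread between mice. In mice with ovaries the difference had opposite signs in XX and XY mice. Cyp4a12a was 15.0-fold higher in XX Ov GDX (3.13 ± 3.77 CPM) than in XX Ov Intact mice (0.209 ± 0.140 CPM), or 9.71-fold without XX Ov GDX replicate 5. It was 0.273 ± 0.104 CPM in XY Ov GDX against 1.41 ± 1.93 CPM in XY Ov Intact mice, or 0.679 CPM without XY Ov Intact replicate 2.

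Among GDX mice Cyp4a12a differed by chromosomes. In XX Ov GDX mice the levels were 0.243, 1.03, 1.56, 7.196, 8.63 and 0.134 CPM, and in XX Te GDX mice 0.616, 0.299, 1.12, 13.1, 0.610 and 9.21 CPM. XY Ov GDX mice had 0.281, 0.213, 0.459, 0.307, 0.175 and 0.204 CPM, and XY Te GDX mice 0.0619, 0.327, 0.359, 0.197, 0.608 and 0.290 CPM. Thus 9 of the 12 XX GDX mice lay above every XY GDX mouse, 4 of them far above, and the other 3 lay among them. Complete separation in this direction was seen for 0.285% of all tested genes and for no member. The XY values are of 1 to 10 reads per mouse, 55 in all against 684 in XX mice, and several are at or near the floor. The mean was 3.65 CPM in XX and 0.290 CPM in XY GDX mice. The log2 fold change, XX minus XY, was 3.78 (SE 0.65, 95% interval 2.51 to 5.04; edgeR quasi-likelihood test, Benjamini-Hochberg adjusted p = 7.05e-06). It was 3.68 in mice that had had ovaries (adjusted p = 0.00333) and 3.87 in mice that had had testes (adjusted p = 0.00104). A two-sided permutation test of the mean of log2(CPM + 0.5), chosen after the data were seen and not adjusted, gave p = 0.00102 for the 12 against 12 mice. The difference of these means, XX minus XY, was 1.56. The highest value, in XX Te GDX replicate 4, came with the highest summed adipocyte markers among GDX mice, 12.3 CPM, and without any single mouse the log2 fold change stayed between 3.38 and 3.93. Leaving out mice singly cannot show how far its size rests on the 4 high XX mice together.

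Among Intact mice the sign of the Cyp4a12a difference was the other way, with means of 25.2 CPM in XX and 46.4 CPM in XY mice. The log2 fold change of -1.72 (SE 0.59, 95% interval -2.88 to -0.57) averages -2.52 in Ov Intact mice, which had few reads, and -0.93 in Te Intact mice, and did not pass the test (edgeR, adjusted p = 0.0510). This call lay at the threshold. It passed with DESeq2 size factors (adjusted p = 0.0493), the DESeq2 Wald test (0.0252), a surrogate variable (0.0426), a fit of Intact mice alone (0.0207) and summed copies (0.0476), but not with library totals (0.0598), without the filter (0.140) or in 47 mice (0.0604). Leaving out each mouse in turn moved the adjusted p between 0.0313 and 0.190. The chromosomal effect on Cyp4a12a differed between GDX and Intact mice by 5.50 on the log2 scale (SE 0.88, 95% interval 3.78 to 7.22; edgeR, adjusted p = 0.00116), and this interaction passed in all 48 fits with a mouse left out (5.05 to 5.67). With library totals, which moved the median of all genes in this comparison by -0.16, it was 5.38 (adjusted p = 0.00199). Fits with a mouse left out cannot show how far the interaction rests on the high XX GDX mice together. An interaction was found for 2.12% of all tested genes, and for 0.402% in this direction. It was found for none of the other members by edgeR, with Cyp4a32 nearest at 0.54 (adjusted p = 0.0651) and Cyp4a12b at 3.39 (adjusted p = 0.129).

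Cyp4a32 was the member with the most regular chromosomal difference in GDX mice. XX Ov GDX mice had 24.2 to 35.5 CPM (median 29.5) and XX Te GDX mice 22.6 to 42.3 CPM (median 27.5). XY Ov GDX mice had 15.5 to 22.1 CPM (median 20.1) and XY Te GDX mice 14.2 to 25.0 CPM (median 21.0). Of the 12 XX mice, 10 lay above every XY mouse. Means were 29.99 CPM in XX and 19.6 CPM in XY GDX mice, a log2 fold change of 0.78 (SE 0.12, 95% interval 0.56 to 1.01; edgeR, adjusted p = 5.37e-07). It passed separately in mice that had had ovaries (0.82, adjusted p = 0.000238) and testes (0.75, adjusted p = 0.000622). The permutation test gave p = 2e-05, the smallest that this two-sided test can give with 100000 resamples. Among Intact mice the difference was 0.24 (SE 0.12, adjusted p = 0.198), with means of 19.8 CPM in XX and 16.7 CPM in XY mice, and the difference between GDX and Intact mice was 0.54 (above). When the reads of Cyp4a10, Cyp4a31 and Cyp4a32 were summed, a sum made up mostly of Cyp4a10, the GDX difference was 0.55 (adjusted p = 0.0130).

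Described by gonad, Cyp4a32 was higher in Te Intact than in Ov Intact mice, as were the Cyp4a12 genes, though by much less. It measured 6.67 to 18.3 CPM (median 13.6) in XX Ov Intact, 5.45 to 16.6 CPM (median 12.5) in XY Ov Intact, 21.5 to 31.7 CPM (median 26.3) in XX Te Intact and 16.5 to 28.7 CPM (median 20.6) in XY Te Intact mice. The ranges did not overlap between XX Ov Intact and XX Te Intact mice, which was so for 1.15% of all tested genes, and overlapped narrowly in XY mice, where 0.837% of all tested genes, both Cyp4a12 genes among them, were fully separated. The Te to Ov ratio of means was 1.91. The mean was 1.97-fold higher in Ov GDX than in Ov Intact mice and was 25.0 ± 7.60 CPM in Te GDX against 23.97 ± 4.83 CPM in Te Intact mice (n = 12 each). The direction of the last difference depended on the scaling, with a log2 value of -0.16 under TMM and 0.04 with library totals. Its sign also differed by chromosomes, at 0.09 (SE 0.16) in XX and -0.41 (SE 0.17) in XY mice under TMM. The log2 value for Ov GDX minus Ov Intact was 1.05 (SE 0.17) in XX and 0.46 (SE 0.17) in XY mice. Of the family, the promoter table of RefSeq held Cyp4a32 alone. Its promoter, from 250 bases before to 50 after the start on the plus strand of GRCm38.p6 (chr4:115600688-115600987), is shown because this gene carried the most regular difference, with a CCAAT box on the reverse strand in capitals.
Cyp4a32 promoter: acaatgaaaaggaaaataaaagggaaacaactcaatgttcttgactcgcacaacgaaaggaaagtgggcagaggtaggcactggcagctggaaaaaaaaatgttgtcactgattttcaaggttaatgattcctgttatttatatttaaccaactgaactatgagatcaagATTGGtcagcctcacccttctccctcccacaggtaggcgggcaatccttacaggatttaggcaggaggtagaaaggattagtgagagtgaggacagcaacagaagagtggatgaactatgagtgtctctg
The box lies 80 bases before the start. CCAAT was found on either strand in 37.4% of 32851 promoters of this length. AGGTCANAGGTCA, a PPAR response element, is not in this window (0.0396% of promoters held it), nor is TTCNNNGAA, a STAT5 motif (8.3%), nor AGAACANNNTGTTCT, an androgen response element (0.00913%). A match of letters is a description and not a binding site.

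Cyp4a10, which supplied the second largest share of the family's reads, was the member whose level differed most between GDX and Intact mice among the abundant genes. Its means ordered as XX Ov GDX (902 ± 223 CPM), XX Te GDX (874 ± 242), XY Ov GDX (761 ± 176), XY Te GDX (623 ± 204), XX Ov Intact (550 ± 241), XY Ov Intact (465 ± 185), XX Te Intact (426 ± 121) and XY Te Intact (319 ± 106), with n = 6 each. In CPM, which are without TMM, all 4 GDX means stood above all 4 Intact means. Each group overlapped its neighbour in this order and differed from it by less than the larger SD. With TMM, the fitted mean of XX Ov Intact lay above that of XY Te GDX mice, so this separation depended on scaling. Single mice ranged from 153 to 953 CPM when Intact and from 433 to 1193 CPM after GDX. Te GDX mice had 2.01-fold and Ov GDX mice 1.64-fold the mean CPM of the corresponding Intact mice. The log2 values under TMM were smaller differences, at 0.81 (SE 0.19) and 0.52 (SE 0.18). The chromosomal difference was 0.46 over all mice (edgeR, adjusted p = 0.00458), 0.55 in GDX mice (SE 0.18, adjusted p = 0.0180; 888 CPM in XX and 692 CPM in XY) and 0.37 in Intact mice (adjusted p = 0.215; 488 and 392 CPM).

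Cyp4a14, the most abundant member, differed less. Its means ran from 1676 ± 388 CPM in XX Ov GDX to 926 ± 322 CPM in XY Te Intact mice, and single mice from 389 to 2300 CPM. The XX minus XY difference was 0.32 over all mice (edgeR, adjusted p = 0.0209), a call lost when XY Te Intact replicate 3 or XY Ov Intact replicate 6 was left out (highest adjusted p 0.0633), with library totals (0.169) and without the filter (0.0958). Within GDX mice it was 0.35 (SE 0.16, adjusted p = 0.0817), with 1616 CPM in XX and 1434 CPM in XY mice, and passed without XY Te GDX replicate 6 (adjusted p = 0.0246) and with a surrogate variable (0.0400). Within Intact mice it was 0.29 (adjusted p = 0.264).

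Cyp4a31 had group means of 7.397 to 13.8 CPM, the highest in XX Ov GDX and the lowest in XY Te Intact mice. Its chromosomal difference was 0.46 over all mice (edgeR, adjusted p = 0.00718), 0.49 in GDX mice (SE 0.19, adjusted p = 0.0440; 12.7 CPM in XX and 10.2 CPM in XY) and 0.42 in Intact mice (adjusted p = 0.173). The GDX call was lost with DESeq2 size factors (adjusted p = 0.0601), the DESeq2 Wald test (0.0521), library totals (0.273) and without the filter (0.189). It passed in 29 of 48 fits with a mouse left out (adjusted p 0.0214 to 0.112), and the permutation test gave p = 0.0988. Described by gonad, Cyp4a10, Cyp4a14 and Cyp4a31 had the opposite sign to the Cyp4a12 genes and Cyp4a32, with log2 values for Ov Intact minus Te Intact of 0.44 (SE 0.18), 0.32 (SE 0.16) and 0.39 (SE 0.19). Ov Intact and Te Intact mice overlapped for all 3 genes.

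**Figure D2:**
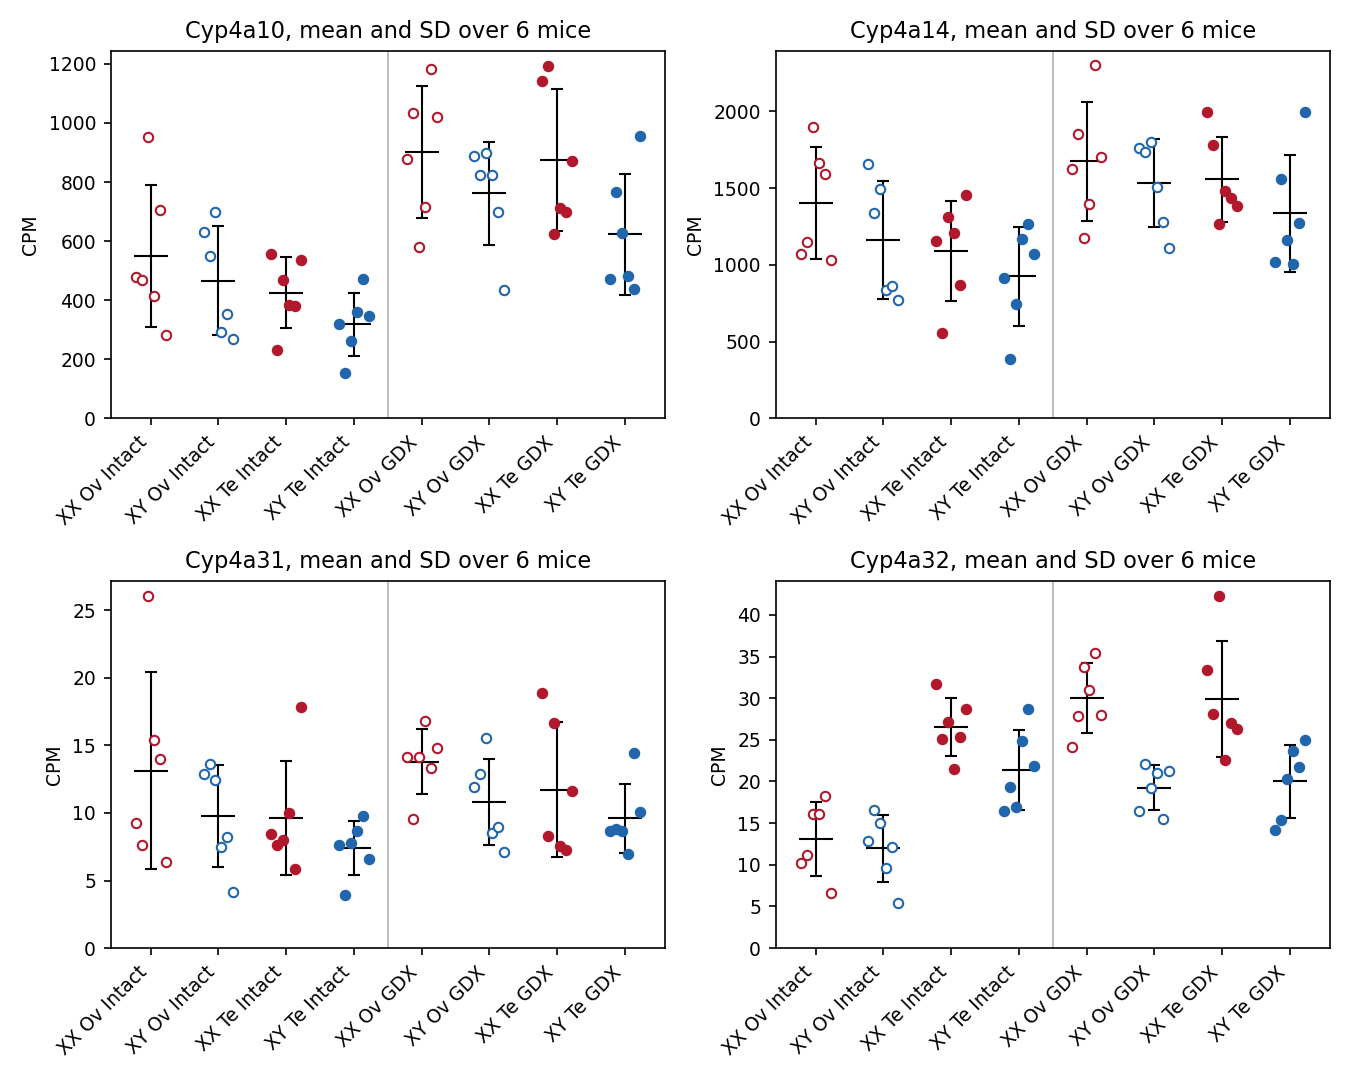
Levels of Cyp4a10, Cyp4a14, Cyp4a31 and Cyp4a32 in CPM for each of the 48 mice, by group, with bars for the mean ± SD of 6 mice (XX red, XY blue, filled points Te, open points Ov). Cyp4a32 is lowest in the Ov Intact groups (means 13.1 and 11.97 CPM). On this scale, without TMM, the 4 GDX groups have the highest means of Cyp4a10 (623 to 902 CPM).

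Over all mice, 4 of the 6 members (Cyp4a10, Cyp4a14, Cyp4a31 and Cyp4a32) were higher in XX than in XY mice by edgeR, against 21.9% of all tested genes called higher. Cyp4a12a (1.03, adjusted p = 0.102) and Cyp4a12b (-0.11, adjusted p = 0.867) did not pass. Within GDX mice 4 of 6 (Cyp4a10, Cyp4a12a, Cyp4a31 and Cyp4a32) were higher in XX, against 19.5% of all tested genes, and within each gonad 2 of 6 (Cyp4a12a and Cyp4a32), against 8.69% for Ov GDX and 8.44% for Te GDX. Cyp4a12b, which passed the filter through the Te Intact mice, had 38 reads in all XX GDX and 14 in all XY GDX mice, and its GDX tests could show little at this depth. Within Intact mice 0 of 6 passed by edgeR, against 10.7% of all tested genes in either direction, and 4 of 6 at an unadjusted p under 0.05, against 23.9%. These 4 went both ways, with Cyp4a12a (-1.72) and Cyp4a12b (-1.81) lower and Cyp4a31 (0.42) and Cyp4a32 (0.24) higher in XX mice. The DESeq2 Wald test called 1, Cyp4a12a, as lower in XX Intact mice. At the adjusted threshold, edgeR called no member lower in XX mice in these comparisons. The counts depended on the scaling of the libraries. TMM factors were 0.946 to 1.070 in XX GDX and 1.069 to 1.243 in XY GDX mice. With library totals in place of TMM, the median log2 fold change of all genes in the GDX comparison moved from 0.08 to -0.10 (a shift of -0.18), the split of all calls from 3001 higher and 2287 lower to 787 and 3411, and only Cyp4a12a (3.62, adjusted p = 2.06e-05) and Cyp4a32 (0.61, adjusted p = 0.000575) passed among the members. The split over all mice went from 3382 and 2275 to 1207 and 3083, and within Intact mice from 658 and 990 to 281 and 864.

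**Figure D3:**
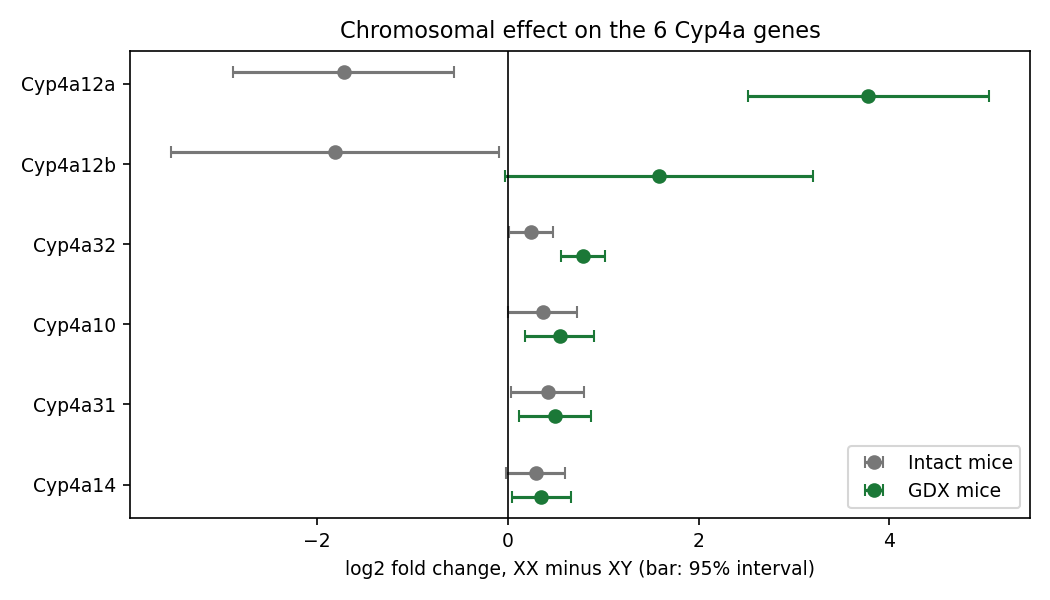
Log2 fold change, XX minus XY, of each member among Intact (grey) and GDX mice (green), with bars for the 95% interval from the edgeR fit. The interval of Cyp4a12a lies below 0 in Intact mice (-2.88 to -0.57) and above 0 in GDX mice (2.51 to 5.04), and the intervals of Cyp4a12b are the widest drawn.

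Whether the kind of gonad at birth still mattered after gonadectomy was asked in the GDX mice, which took no part in the choice of the family. Of Cyp4a10, Cyp4a12a, Cyp4a14, Cyp4a31 and Cyp4a32, none was called between Ov GDX and Te GDX mice by edgeR or DESeq2, and none passed at an unadjusted p under 0.05. Cyp4a12b had 18 reads in all Ov GDX and 34 in all Te GDX mice, so that a difference was not detectable at this depth. Of all tested genes 0.0908% were called, 14 in number (475, or 3.08%, at an unadjusted p under 0.05, and 25 by DESeq2). The Ov minus Te difference was -0.32 for Cyp4a12a (95% interval -1.77 to 1.14), -0.05 for Cyp4a32 (-0.27 to 0.18) and 0.14 for Cyp4a10 (-0.22 to 0.50). It was 0.13 for Cyp4a14 and 0.18 for Cyp4a31. The interval of Cyp4a32 ends short of its chromosomal difference in the same mice (0.78), whereas that of Cyp4a12a is wide. That of Cyp4a10 overlaps the interval of its own chromosomal difference in these mice (0.55, 95% interval 0.18 to 0.91). In the Intact mice, no member had a chromosomal effect shown to differ between Te and Ov (library totals moved the median of all genes here by 0.17), and edgeR called 0 of all tested genes (989 at an unadjusted p under 0.05, no member among them; 2 by the DESeq2 Wald test).

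The genes around the family were taken from lists, which like the members were chosen with earlier results of these data known. Of 29 PPARα target genes other than Cyp4a, 27 were higher and 1 lower in XX than in XY mice by edgeR, against 21.9% and 14.8% of all tested genes. The median log2 fold change of the list was 0.40 and that of all genes 0.05. Within GDX mice 26 were higher and 1 lower (median 0.49 against 0.08; background 19.5% and 14.8%), and within Intact mice 18 and 0 (median 0.36 against 0.02; background 4.27% and 6.42%). Those with the largest differences were Pdk4, the kinase that restrains pyruvate oxidation, at 1.17 in GDX (adjusted p = 0.000222) and 1.17 in Intact mice (adjusted p = 0.00103), and Fgf21, the fasting hormone, at 1.16 and 0.99. Vnn1, a pantetheinase, was higher by 0.85 in GDX mice, and Plin2, a lipid droplet coat protein, by 0.67 in Intact mice. Pltp, which transfers phospholipid between lipoproteins, was the exception at -1.29 in GDX mice. No target differed between GDX and Intact mice in its chromosomal effect (3 at an unadjusted p under 0.05), and none differed between Ov GDX and Te GDX mice (8 unadjusted), by edgeR or by the DESeq2 Wald test. With library totals the counts were 19 and 1 in GDX and 11 and 0 in Intact mice.

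By gonad and gonadectomy the PPARα targets did not move one way. Of the 29, 7 were higher and 6 lower in Ov Intact than in Te Intact mice (background 14.1% and 11.3%), and the acyl-CoA thioesterases Acot3 (1.88) and Acot4 (0.82) were among the higher. In Te GDX against Te Intact mice 5 were higher and 14 lower (background 33.4% and 29.9%), with Acot3 at 1.97 and Fabp1, the liver fatty acid binding protein, at -1.32. In Ov GDX against Ov Intact mice 10 were higher and 9 lower (background 36.0% and 33.4%), with the fatty acid transporter Cd36 at -0.97. These splits depended on scaling. With library totals they became 9 and 10 in the Te and 15 and 6 in the Ov comparison, where the median of all genes moved up by 0.20 and 0.21, and the splits of all genes went from 5147 higher and 4611 lower to 7306 and 3208, and from 5554 and 5141 to 7362 and 3768. In the comparison of Ov Intact with Te Intact mice they became 7 and 4, and for all genes 2171 and 1736 went to 2146 and 1007.

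**Figure D4:**
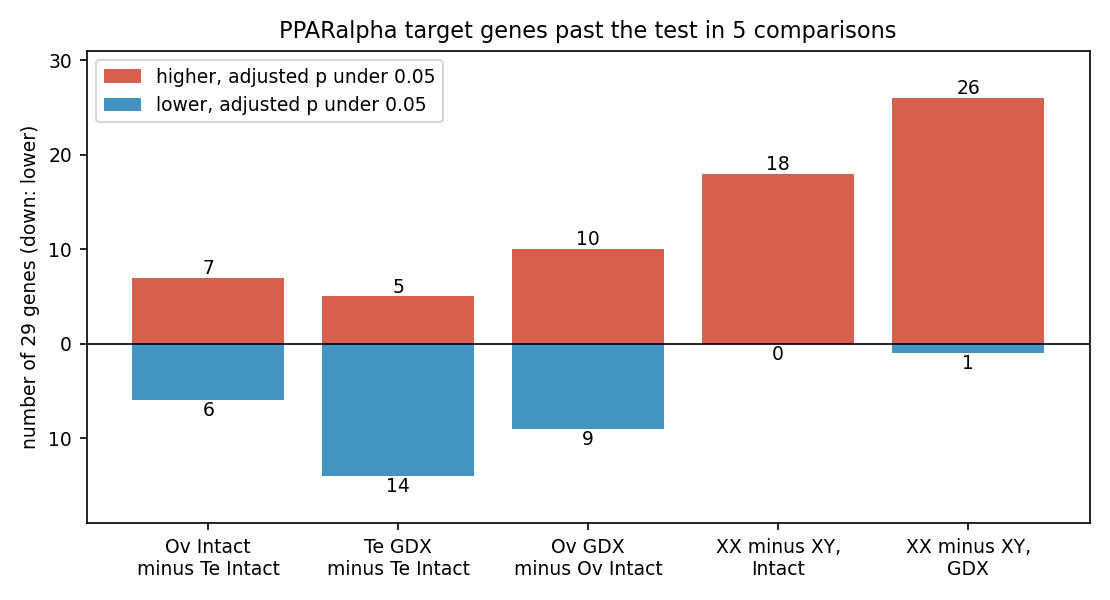
Number of the 29 PPARα target genes called higher or lower (adjusted p under 0.05, edgeR) in each of 5 comparisons. In GDX and in Intact mice the calls of the XX minus XY comparison are 26 and 18 higher against 1 and 0 lower, whereas gonad and gonadectomy give calls in both directions.

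The receptor itself, Ppara, was higher in XX mice by 0.47 among GDX mice (edgeR, adjusted p = 0.00235) and by 0.39 over all mice (adjusted p = 0.00042). Of the 9 genes of the list of receptors and partners, 2 were higher (Ppara and the bile acid receptor Nr1h4) and 1 lower (Pparg, -0.45) in XX GDX mice, shares near the 19.5% and 14.8% of all tested genes, so that nothing is read from them, and 0 passed among Intact mice by edgeR (2 at an unadjusted p under 0.05, 0 by DESeq2). Of 23 genes that donate electrons to CYP4A or carry omega-oxidation further, 17 were higher and 0 lower in XX GDX mice (background 19.5% and 14.8%), and 8 and 0 in XX Intact mice (background 4.27% and 6.42%). Acot4, Ehhadh, Acaa1b and Aldh3a2 are among the genes that stand on this list and on that of PPARα targets. The higher genes included Aldh1a1, an aldehyde dehydrogenase (0.81), and the peroxisomal enzymes Acaa1b (0.73) and Scp2 (0.61), all in GDX mice. In Te GDX against Te Intact mice 4 of the 23 were higher and 14 lower, with the carnitine octanoyltransferase Crot at -1.28 (background 33.4% and 29.9%), and in Ov GDX against Ov Intact mice 8 were higher and 8 lower, near the background of 36.0% and 33.4%. In Ov Intact against Te Intact mice 3 were higher and 9 lower (background 14.1% and 11.3%). Cyb5a, the b5 that assists P450 enzymes, was lower by 1.23 in Ov GDX than in Ov Intact mice (log2 -1.23). Por, which encodes cytochrome P450 reductase, went the other way within XX mice. It was higher by 0.81 in XX Ov GDX than in XX Ov Intact mice (edgeR, adjusted p = 0.00054). In XX Te GDX it was higher by 0.90 than in XX Te Intact mice (edgeR, adjusted p = 0.00051).

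Of 12 other Cyp4 genes listed, 8 passed the filter. In XX GDX mice 2 were higher and 2 lower, Cyp4f17 (0.48) and the fatty acid hydroxylase Cyp4v3 (0.46) against Cyp4f16 (-1.56) and Cyp4b1 (-0.43), while among Intact mice Cyp4f16 alone passed (-0.94). With 8 genes tested, nothing is read from these counts beside the background (19.5% and 14.8% in GDX, 4.27% and 6.42% in Intact mice). Cyp4f17 was the member of this list whose chromosomal effect differed between GDX and Intact mice (0.43, adjusted p = 0.0320), against 2.12% of all tested genes. By gonad, 1 was higher and 3 lower in Ov Intact mice, with Cyp4v3 at -0.56 (background 14.1% and 11.3%). In Te GDX against Te Intact mice 4 were higher and 2 lower (33.4% and 29.9%), and in Ov GDX against Ov Intact mice 3 and 0 (36.0% and 33.4%). Of 19 other enzymes of arachidonate listed, 15 passed the filter, with 6 higher and 3 lower in XX GDX mice (background 19.5% and 14.8%) and 3 and 3 in XX Intact mice (4.27% and 6.42%). Cyp2c40, an arachidonate-metabolising P450, differed by gonad in the direction opposite to Cyp4a12a, at 6.80 in Ov Intact minus Te Intact and 5.02 in Te GDX minus Te Intact mice (edgeR, adjusted p = 8.43e-16 and 1.29e-12). Over this list, 5 were higher and 5 lower in Ov Intact than in Te Intact mice (background 14.1% and 11.3%), 3 and 5 in Te GDX (33.4% and 29.9%), and 0 and 3 in Ov GDX mice (36.0% and 33.4%) against their Intact counterparts. Pla2g4a, the phospholipase that releases arachidonate, was lower in XX GDX mice (-2.33), by more than in Intact mice (difference -1.35, adjusted p = 0.0224). The summed neutrophil and Kupffer cell markers were higher in XY mice (above), and their part in this difference was not tested.

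Mouse by mouse, the abundant members varied together. After subtracting group means from log2 CPM, Cyp4a10 and Cyp4a14 had Pearson's r of 0.889 and Spearman's rho of 0.880 over 48 mice (permutation p of 1e-05 each, the smallest that 100000 resamples can give; 2.75e-05 and 3.67e-05 after Benjamini-Hochberg adjustment over 11 relations). Without the 2 mice farthest from the median of Cyp4a10, r was 0.880. Within Intact mice r was 0.887 and within GDX mice 0.900. Cyp4a10 and Ppara had r of 0.557 and rho of 0.483 over all mice (adjusted permutation p of 0.00011 and 0.000935), and r of 0.496 without the 2 farthest mice. This relation held in Intact mice (0.838) and had the opposite sign in GDX mice (-0.218), so that the pooled value rests on the Intact mice. The same was seen for Cyp4a14 and Ppara (0.665 in Intact and -0.175 in GDX mice) and for Cyp4a10 and Cyp4a32 (0.708 and -0.042). Cyp4a32 and Ppara were related in both (0.822 and 0.534; 0.752 over all mice). Cyp4a31 had values of 0.648 and 0.142 with Ppara, and of 0.785 and 0.154 with Cyp4a10. Reads shared among near-identical members, depth, and the make-up of each library are common to such pairs, and their part was not tested. CPM without TMM do not adjust for that make-up, and TMM factors differed within Intact groups, as with 0.742 and 1.04 in XX Ov Intact replicates 6 and 4.

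**Figure D5:**
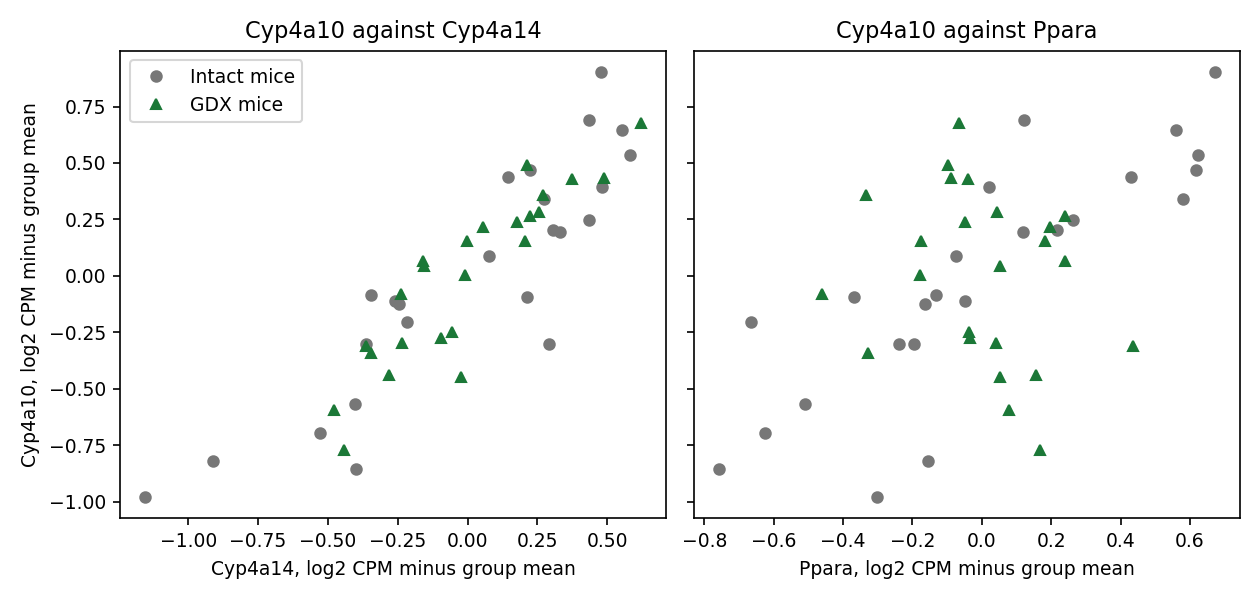
Log2 CPM of Cyp4a10 after subtracting group means, plotted against that of Cyp4a14 and of Ppara, 1 point per mouse (Intact grey circles, GDX green triangles). With Cyp4a14 both sets of points follow a common line (r of 0.887 and 0.900), whereas with Ppara the Intact mice do (0.838) and the GDX mice do not (-0.218).

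Genes whose pattern over all 48 mice was most like that of each member were found by Spearman's rho among 12935 genes with a mean of at least 1 CPM, as a description. For Cyp4a12a they were Trip4 (0.869), Cyp2u1 (0.865) and Mtnr1a (0.849), and for Cyp4a12b Ces3a (0.867), Trip4 (0.853) and Cyp2d9 (0.799). For Cyp4a10 they were Slc27a1 (0.891), Tpcn1 (0.889) and Optn (0.875), and for Cyp4a14 Lcat (0.799), Retsat (0.791) and Smoc1 (0.769). Cyp4a32 was most like Scp2 (0.855) and Ugt1a6b (0.850), and Cyp4a31 most like Dact2 (0.801), Pglyrp2 (0.781) and Crat (0.773). After group means were subtracted, the genes nearest to Cyp4a10 were Dmgdh (0.839) and Cpt2 (0.836), and those nearest to Cyp4a14 were Acadvl (0.843), Cpt2 (0.833) and Retsat (0.825). Cpt2 and Acadvl encode enzymes of mitochondrial fatty acid oxidation. The nearest to Cyp4a32 was then Ogdh (0.797), to Cyp4a31 Eps8l2 (0.786), to Cyp4a12a Vkorc1l1 (0.671) and to Cyp4a12b Ttc39c (0.668).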

How the data were processed

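Liver RNA of 48 FCG mice, 1 library per mouse, was sequenced after poly(A) selection (KAPA mRNA HyperPrep). The authors aligned the reads to GRCm39 and counted them per gene with STAR (2.7.10a), per the labels' processing notes, which also name DESeq2 (1.36.0). The authors deposited raw counts, whole numbers without any normalization, of 55414 Ensembl identifiers. The 50-base words used to compare sequences have the read length stated in the study's RNA-seq methods, which state none for the FCG libraries in particular. With 100-base words, the shares of the coding sequence found in no other gene were 58.5% for Cyp4a12a and for Cyp4a12b. They were 79.9% for Cyp4a32, 82.1% for Cyp4a10 and 86.2% for Cyp4a31. The annotation release and the strand setting are not given in the sources used here, so reads of overlapping genes cannot be told apart. The 4 summary lines, 25.5% to 42.3% of reads, were left out. Symbols matched 31020 identifiers (56.0%). The groups came from the labels, and 0 mice went against them on X- and Y-linked genes. In 120 pairs of mice of one group, counts differed by at least 7.738 in chi-square per gene, so no pair was treated as 1 library. Replicates are separate mice.

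The members and gene lists were chosen with earlier results of these data known. Named genes are the members and, for each list, up to 4 genes with the largest changes past the threshold. Genes of lists also needed a mean of at least 1 CPM, and up to 3 genes of highest Spearman rho are named for likeness. A few genes that these rules select are not reported here. CPM were computed from reads counted on genes, without TMM, so a ratio of CPM and a log2 fold change need not match. A mean per group was fitted in R 4.3.3 with edgeR 4.0.16 (TMM, filterByExpr, robust quasi-likelihood, Benjamini-Hochberg over 15414 genes, threshold 0.05). The fit was tested on simulated data. Alternatives were DESeq2 1.42.0 size factors and Wald test, library totals, no filter, 47 mice (without XX Te Intact replicate 5, absent from the individual values the study plots), a surrogate variable (sva 3.50.0), fits of 1 gonadal status, summed near-identical genes, and each mouse left out. Permutation tests, sequences and plots used Python 3.11.15 (scipy 1.17.1, numpy 2.4.6, pandas 2.3.3, biopython 1.88, matplotlib 3.10.9). Coding sequences are those of the NCBIM37 annotation, and the promoter that of RefSeq on GRCm38.p6.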

Additional observations from a re-analysis of the deposited data

Results flagged for a closer look

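Among 46 groups of 6 mice examined for the members, 4 held a mouse far from the others by Dixon's test, and chance alone gives about 1 in 20. Cyp4a12a measured 101 CPM in XX Te Intact replicate 6, against 30.01 to 46.3 CPM in the other 5 mice. The same mouse had the far value of Cyp4a31, 17.8 CPM against 5.84 to 9.98 CPM. Cyp4a12a measured 5.06 CPM (77 reads) in XY Ov Intact replicate 2, against 0 to 1.90 CPM in the others, and without this mouse the chromosomal effect over all mice passed for Cyp4a12a (adjusted p = 0.0395, edgeR). Cyp4a12b measured 39.2 CPM in XY Te Intact replicate 2, against 8.70 to 16.7 CPM in the others.

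The chromosomal effect differed between GDX and Intact mice by the interaction test of edgeR for Cyp4a12a (5.50 on the log2 scale), Cyp4f17 (0.43) and Pla2g4a (-1.35). These differences are of GDX with Intact mice, which also differ in duration of HFD and in library make-up, and the 3 cannot be told apart.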

How the results depend on the processing

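No paired analysis was possible because the labels identify single mice and give no number, litter or batch shared between groups. Counts of members called with a chromosomal effect went from 4 to 2 over all mice with library totals (3 without the filter, and 5 by the Wald test, which called Cyp4a12a), and in GDX mice from 4 to 2 with library totals, to 2 without the filter, to 3 with DESeq2 size factors or the Wald test, which lost Cyp4a31, and to 5 with a surrogate variable, which gained Cyp4a14. In Intact mice the count went from 0 to 1 with DESeq2 size factors, the Wald test of DESeq2, a surrogate variable or a fit of Intact mice alone, and to 2 with summed near-identical genes, whose 2 sums count for 5 members, and was 0 to 1 with a mouse left out. The interaction of chromosomes and GDX went from 1 to 3 members by the Wald test, to 2 with a surrogate variable and to 2 with summed genes, and was 1 to 2 with a mouse left out. Of the PPARα targets, those higher in XX Intact mice went from 18 to 11 with library totals (9 in a fit of Intact mice alone), those higher in Te GDX from 5 to 9 with library totals and 3 with a surrogate variable, and those higher in Ov GDX from 10 to 6 with a surrogate variable. With summed genes the sign turned for Cyp4a12b in XX minus XY (0.90), for Cyp4a32 in Ov minus Te mice (0.14 in GDX, 0.38 in Intact) and for Cyp4a31 in the interaction of chromosomes and gonad (0.0024), since the sums are mostly of Cyp4a12a or Cyp4a10. In the interaction of chromosomes and GDX it turned with library totals for Cyp4a14 (-0.081) and Cyp4a31 (-0.0756), and without the filter for Cyp4a14 (-0.0045). A surrogate variable turned the interaction of chromosomes and gonad for Cyp4a10 (-0.0471) and Cyp4a32 (-0.0266), and the ovariectomy difference of Aldh1a1 (0.13) and Cyp2j6 (0.16). With each mouse left out, values near 0 spanned it: Cyp4a12b in XX minus XY from -0.42 to 0.041, the interaction with GDX of Cyp4a14 from -0.015 to 0.15 and of Cyp4a31 from -0.034 to 0.24, the interaction with gonad of Cyp4a10 from -0.13 to 0.24, of Cyp4a31 from -0.51 to 0.10 and of Cyp4a32 from -0.054 to 0.16, and Ov minus Te in GDX mice of Cyp4a12a from -0.63 to 0.085 and of Cyp4a32 from -0.10 to 0.0032. The Intact call of Cyp4a12a appeared without any 1 of 16 mice (any XX Te GDX mouse, XX Ov GDX replicates 1, 4, 5 and 6, XY Ov Intact replicates 1, 5 and 6, XY Te Intact replicates 4 and 6, and XX Te Intact replicate 6), and the interaction of Cyp4a32 passed without XX Ov Intact replicate 3, XY Ov Intact replicate 6 or XY Te GDX replicate 6. The GDX call of Cyp4a31 was lost without any 1 of 19 mice (XX Ov GDX replicates 1, 3, 4, 5 and 6, XX Te GDX replicates 1, 3 and 6, XY Ov GDX replicates 4, 5 and 6, XY Te GDX replicates 1, 2, 3 and 4, XY Te Intact replicates 3 and 6, XY Ov Intact replicate 6 and XX Ov Intact replicate 6). The cause was not tested except where stated. Of the member values under other settings, 351 were counted as unchanged, 10 lost and 13 gained a call, 9 turned and 5 moved. In tested comparisons, unchanged means the same direction and side of the threshold. The differences by gonad in Intact mice, castration and ovariectomy have no test. For them unchanged means a shift smaller than the SD within groups, so a turn near 0 can be counted so, and moved means a larger shift. Low counts limit both Cyp4a12 genes outside Te Intact mice.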
